A study of Drosophila melanogaster with 5 samples.

Results

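The microRNA genes mir-927, mir-969 and mir-985 of Drosophila melanogaster were described as 3 hairpins with 6 mature arms, out of 479 arms of 259 hairpins in the count table. They were chosen because each had an arm with reads in both carcass libraries and no read in any of the 3 intestine libraries, so the contrast between the tissues chose them and is given here as a description, without a test. The choice covers 1 arm of mir-927 (miR-927-3p), 1 arm of mir-969 (miR-969-5p) and both arms of mir-985. The other arms, miR-927-5p and miR-969-3p, did have intestine reads, so the name "carcass-restricted" does not hold for both arms of mir-927 or mir-969. mir-985 had no intestine read on either arm in these libraries. However, miR-985-5p had too few carcass reads to show whether it differed between the tissues.

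Libraries of small RNA, 18 to 29 nt long, represented the dissected intestine (3 libraries) and the rest of the body, called the carcass (2 libraries). All flies were adult males of 2 to 3 days on standard food, of the w1118 strain, a laboratory stock with white eyes from a mutation in the white gene; the submitters call it wildtype. Without the gut, the body still holds nervous tissue, muscle, fat body, cuticle and testis, so a carcass level is an average over many cell types, and fewer cells of a type cannot be told apart from less RNA per cell. The labels do not say how many animals were pooled or whether libraries came from separate animals.

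A microRNA gene is transcribed into a long precursor, from which a hairpin is cut and then a short duplex. One strand of the duplex, the guide, is usually kept in an Argonaute protein, where it represses messenger RNAs that pair with its seed near the 5′ end, and the other strand is mostly degraded. Reads of the 5p and 3p arms therefore measure both strands of 1 hairpin. In the fly, miR-927 is known from work on Kr-h1, a transcription factor of the juvenile hormone pathway. miR-210, whose gene is the nearest hairpin to mir-969, is known from photoreceptors.

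The intestine libraries held 329424 to 547937 microRNA reads and the carcass libraries 1654625 and 3038873. Libraries of one tissue differed from each other by more than sampling noise (chi-square of at least 10.9 per degree of freedom), so none looked like a repeated deposit. Lists of marker microRNAs were chosen with earlier results of these data known, so their sums are a description and not a check of the labels. The intestine list (mir-958, mir-375 and mir-263a, 6 of 6 arms detected in both tissues) summed to 253936 to 269158 CPM (read counts per 1e6 microRNA reads, here on library totals) in the intestine and to 20768 and 24415 in the carcass. The testis cluster list (21 hairpins, 42 of 42 arms detected in the carcass and 27 in the intestine) summed to 45.5 to 54.8 CPM in the intestine and to 3554 and 3705 in the carcass, so that the intestine stood at 1.38% of the carcass. The muscle list (mir-1 and mir-133, 4 of 4 arms detected in both) summed to 27823 to 41637 CPM in the intestine and to 143062 and 153071 in the carcass. The list of neurons and eye (mir-124, mir-210, mir-263b, mir-1000 and mir-137) was detected in 10 of 10 arms in the carcass and 7 in the intestine. It summed to 686 to 834 CPM in the intestine, where mir-137 supplied 669 of its 948 reads, and to 20686 and 30126 in the carcass. Within this list miR-137-3p went the other way, with an intestine level at 168% of the carcass.

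All 3 hairpins lie on the X chromosome (BDGP6.54 annotation, dm6 coordinates; the authors' build is not given in the sources used here). Of the 258 hairpins of the table with an annotated position, 55 (21.3%) are X-linked. Among the 54 hairpins that had an arm with reads in both carcass libraries and none in the intestine, 24 (44.4%) are X-linked, and 16 of 42 (38.1%) without the testis clusters. Since the 3 genes were picked from that set, their shared chromosome is a description.

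The mir-927 hairpin (FBgn0262210) spans chrX:15965947-15966038 on the minus strand, with miR-927-5p at chrX:15966002-15966023 and miR-927-3p at chrX:15965962-15965983, both 22 nt long. It sits within an intron of 820 bases of mmd (mind-meld), a protein-coding gene for an ADAM-family metalloprotease, on the same strand, and all 8 annotated mmd transcripts span it there. The mir-985 hairpin (FBgn0262283) spans chrX:16191254-16191339 on the minus strand, 225216 bases from mir-927, with miR-985-3p at chrX:16191270-16191291 and miR-985-5p at chrX:16191303-16191324. It lies in an exon of both annotated transcripts of a long non-coding RNA on the same strand, lncRNA:CR46211, and the nearest coding gene is disco, a zinc finger transcription factor of the developing visual system, 19259 bases upstream. The nearest hairpin to both of these genes, mir-4958, is 114885 bases from mir-927 and 110198 from mir-985.

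The mir-969 hairpin (FBgn0262263) spans chrX:18124357-18124450 on the plus strand, with miR-969-5p at chrX:18124375-18124395 and miR-969-3p at chrX:18124416-18124436, both 21 nt long. No other annotated gene overlaps it. Its nearest hairpin is mir-210, 3769 bases downstream on the same strand. The nearest annotated gene is lncRNA:CR32553, on the opposite strand, whose closer end lies 125 bases downstream. The muscle gene wupA, for troponin I, lies 7435 bases upstream on the opposite strand.

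**Figure D1:**
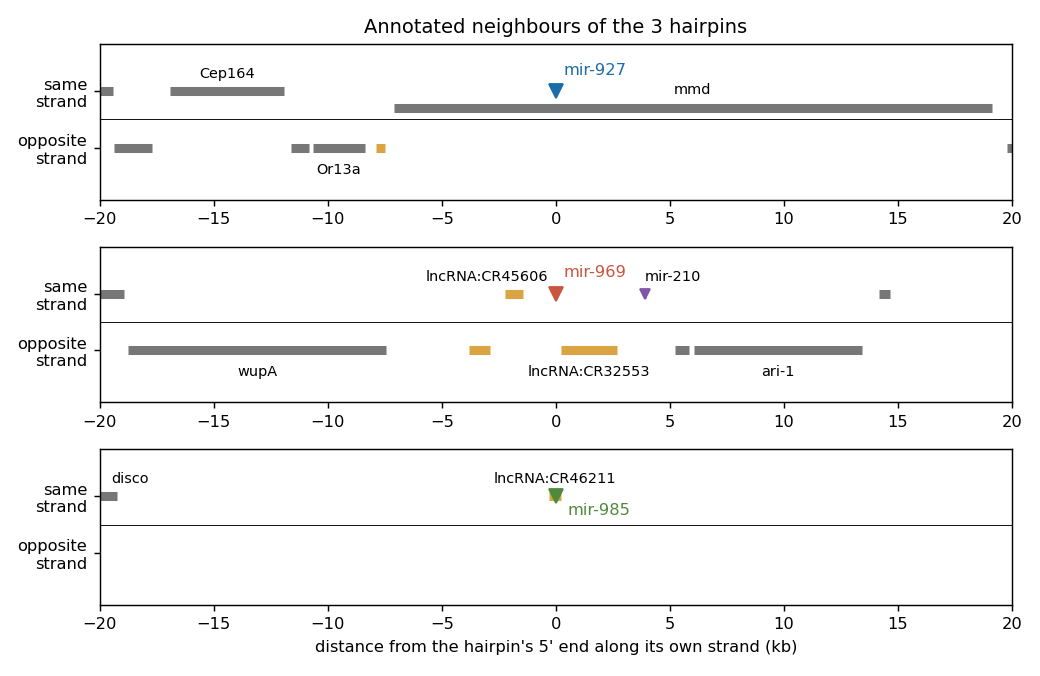
Annotated genes within 20 kb of mir-927 (top), mir-969 (middle) and mir-985 (bottom); the x axis is the distance in kb from the 5′ end of the hairpin along its strand, grey bars are protein-coding genes, yellow bars non-coding genes, and triangles hairpins. mir-927 lies within mmd, mir-969 lies 3769 bases before mir-210, and mir-985 lies within lncRNA:CR46211.

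mir-927 was the most abundant of the 3 genes. miR-927-5p, its major arm, had 794 and 1428 reads in carcass 1 and 2, and 5, 0 and 1 reads in intestine 1, 2 and 3. On the scale of trimmed mean of M-values (TMM, a scaling that corrects library totals for differences in composition), its level was 376 and 388 CPM in the carcass, 382 ± 8.19 (SD, n = 2), and 10.5, 0 and 3.61 CPM in the intestine. Both carcass libraries stood far above all 3 intestine libraries, and 5 of the 6 intestine reads were in a single library. At the carcass level, 589.7 reads would have been expected in the intestine libraries together, on library totals, against the 6 seen. The carcass was 98.3-fold higher on pooled library totals (95% exact counting interval 45.1 to 268), or 68.9-fold with TMM sizes. Without intestine 1, which held those 5 reads, the ratio was 330-fold.

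miR-927-3p, the minor arm, had 47 and 126 carcass reads and 0 in each intestine library. Its TMM-scaled carcass level was 22.3 and 34.2 CPM, 28.2 ± 8.44 (SD, n = 2). Where an arm had no intestine read, 3 reads in the sum of the intestine libraries (2.41 CPM on library totals) were put in place of 0, and the resulting fold is a lower bound. miR-927-3p was thus at least 15.3-fold higher in the carcass, or at least 10.7-fold with TMM sizes. The bound fell to 8.57-fold without intestine 1, because fewer reads then set the floor. Had miR-927-3p stood at the same share of its carcass level as miR-927-5p did (1.02%), 0.467 reads would have been expected in the intestine. Its absence is therefore not distinguishable from the low level of its partner arm.

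mir-985 was the gene with no intestine read on either arm. miR-985-3p, the major arm, had 165 and 359 carcass reads and 0 in each of the 3 intestine libraries. Its TMM-scaled carcass level was 78.1 and 97.4 CPM, 87.8 ± 13.6 (SD, n = 2). At the carcass level, on library totals, 61.2, 41.1 and 36.8 reads would have been expected in intestine 1, 2 and 3. It was at least 46.4-fold higher in the carcass on library totals, at least 32.5-fold with TMM sizes, and at least 26.0-fold without intestine 1. On library totals, the floor of 3 reads allows an intestine level of up to 2.16% of the carcass level, and with TMM sizes it allows more.

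miR-985-5p had 6 and 7 carcass reads and 0 in each intestine library, a TMM-scaled carcass level of 2.84 and 1.90 CPM. At the carcass level on library totals, 3.45 intestine reads would have been expected in all. The depth therefore does not show whether this arm differed between the tissues, and no fold is given. It was the member arm nearest the edge of the choice, with the fewest carcass reads of the 4 arms that had none in the intestine. Summed over both arms, mir-985 held 537 carcass reads. It ranked 3 by that sum among the 27 hairpins with reads in both carcass libraries and no intestine read on any arm, after mir-977 with 749 and mir-2494 with 621.

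mir-969 was the least abundant. miR-969-5p, the major arm, had 60 and 184 carcass reads and 0 in each intestine library. Its TMM-scaled carcass level was 28.4 and 49.9 CPM, 39.2 ± 15.2 (SD, n = 2), the widest relative spread of the major arms. It was at least 21.6-fold higher in the carcass on library totals, at least 15.1-fold with TMM sizes, and at least 12.1-fold without intestine 1. On library totals, 64.8 intestine reads would have been expected at the carcass level, and the floor allows up to 4.63% of that level. With TMM sizes the floor allows more.

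miR-969-3p was not among the arms chosen for having no intestine read. It had 4 and 24 carcass reads and 2, 0 and 0 intestine reads, with TMM-scaled levels of 1.89 and 6.51 CPM in the carcass and 4.20, 0 and 0 CPM in the intestine. The tissues overlapped, since intestine 1 stood above carcass 1. The pooled ratio was 3.72-fold higher in the carcass with a 95% exact counting interval of 0.937 to 32.2, which includes no difference. With TMM sizes it was 2.61-fold (0.657 to 22.6). In the carcass, miR-969-5p had 8.71 times the reads of miR-969-3p. Since miR-969-5p was chosen for having no intestine read, the 2 intestine reads of the hairpin had to be of the minor arm. Those 2 reads lie just outside the choice, and they are too few for a ratio of the arms in the intestine.

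**Figure D2:**
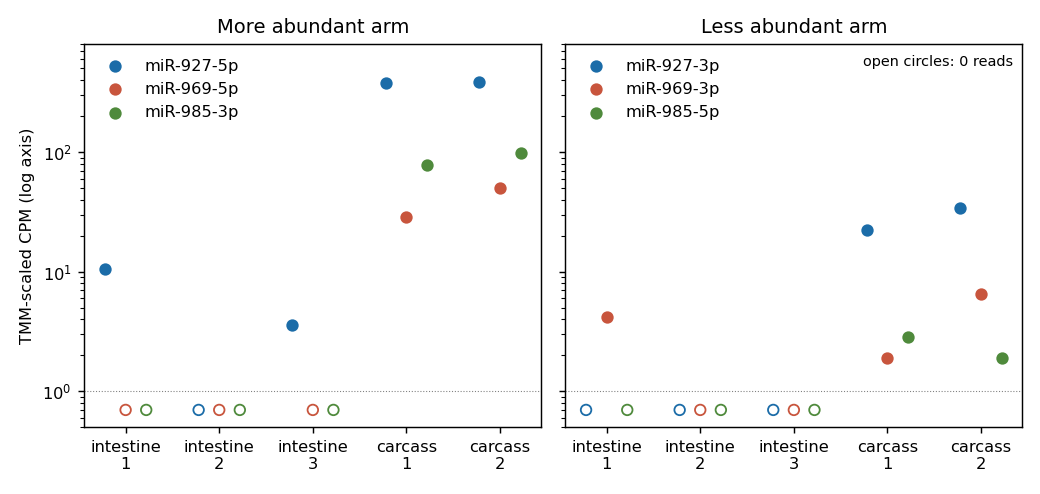
TMM-scaled CPM (y, log axis) of the more abundant arm (left) and the less abundant arm (right) of each hairpin in every library (x); filled circles are measured values and open circles, drawn below the dotted line at 1 CPM, are libraries with 0 reads. miR-985-3p and miR-969-5p have reads in both carcass libraries and in no intestine library, whereas miR-927-5p and miR-969-3p have intestine reads.

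In the order of TMM-scaled carcass levels, miR-927-5p was followed by miR-985-3p, miR-969-5p, miR-927-3p, miR-969-3p and miR-985-5p. The values of the 2 libraries overlapped for the neighbours miR-969-5p and miR-927-3p and for miR-969-3p and miR-985-5p, and did not overlap for the other neighbours. With n = 2 no order is tested, and levels of different arms also carry differences in how well each sequence ligates and amplifies. Of the 400 arms read in the carcass, miR-927-5p ranked 90, between miR-87-3p (420 ± 75.9 CPM, SD, n = 2) and miR-1015-3p (372 ± 3.33). miR-985-3p ranked 138, between miR-315-3p (89.9 ± 7.23) and miR-998-3p (87.3 ± 3.74), and miR-969-5p ranked 178, between miR-125-3p (39.2 ± 10.2) and miR-2498-5p (38.9 ± 1.98). miR-985-3p and miR-969-5p differed from both of these neighbours by less than the spread between libraries. miR-927-5p overlapped with miR-87-3p, whose libraries differed more, and lay just above miR-1015-3p without overlap.

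The pattern of reads in the carcass and none in the intestine was not rare. Of the 342 arms with reads in both carcass libraries, 62 (18.1%) had no intestine read, and the 4 member arms are among them by choice. When the carcass libraries were thinned in a single random draw to the 329424 reads of the shallowest library, 35 arms fitted the pattern. In that draw the thinned counts of miR-985-3p were 33 and 28, those of miR-969-5p 10 and 19, those of miR-927-3p 6 and 15, and those of miR-985-5p 1 and 1. Other draws would give other counts, and at so few reads miR-985-5p could be missed. By carcass reads, miR-985-3p ranked 4 and miR-969-5p ranked 8 of the 62, and miR-210-5p had the most with 1369. In the edgeR quasi-likelihood test of the whole table (222 arms tested, Benjamini-Hochberg adjusted p of 0.05), 107 arms (48.2%) were lower in the intestine and 77 higher, or 126 and 50 when scaled by library totals. Of the 6 member arms, 4 passed the filter on low counts, all through the carcass libraries, and all 4 were among those called lower. For 3 of them the choice of arms without intestine reads fixed this. miR-927-5p had intestine reads but belongs to a hairpin chosen on the same contrast, so nothing is read from its call either. miR-969-3p and miR-985-5p did not pass the filter.

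**Figure D3:**
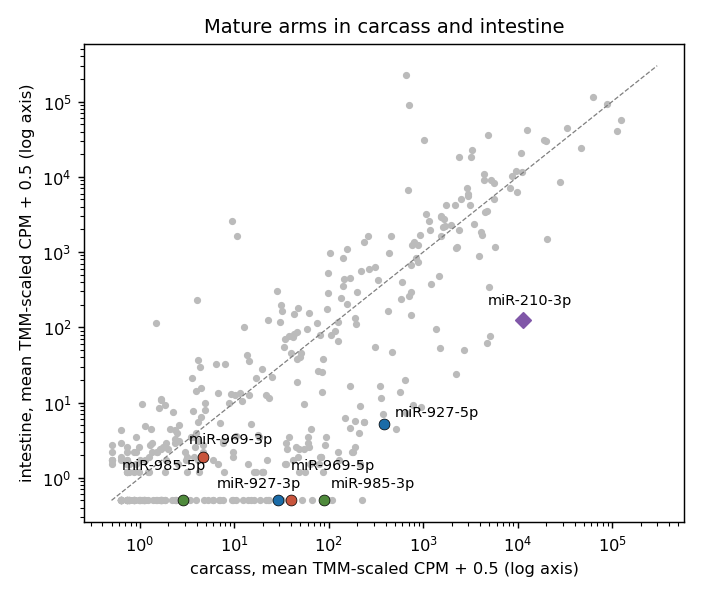
Mean TMM-scaled CPM + 0.5 of every arm detected in either tissue, carcass on x and intestine on y, both log axes; grey points are other arms, coloured circles the 6 member arms, the purple diamond miR-210-3p, and the dashed line equal levels. 4 member arms lie on the bottom row of arms without intestine reads, among 62 with reads in both carcass libraries.

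How low an intestine level these libraries could show was set against carcass microRNAs with more reads. Shares are on library totals. miR-210-3p, with 71621 carcass reads, had 128 intestine reads, or 0.673% of its carcass level. miR-124-3p stood at 0.865%, miR-133-3p at 0.918% and miR-927-5p at 1.02%. Other markers stood higher, with miR-1000-5p at 2.42%, miR-1-3p at 24.3% and miR-137-3p at 168%. As whole lists, the testis clusters stood at 1.38%, neurons and eye at 2.84% and muscle at 23.2%. At the share of the testis list, 1.92 intestine reads of miR-985-3p, 0.894 of miR-969-5p and 0.634 of miR-927-3p would have been expected, each below the floor of 3 reads. At the share of miR-210-3p the expected reads were 0.936, 0.436 and 0.309. At the share of the list of neurons and eye they were 3.95, 1.84 and 1.304, so that miR-985-3p would have passed the floor. That share rests mostly on mir-137, with 669 of the 948 intestine reads. miR-210-3p and miR-124-3p, of the same list, stood below the share of the testis list. At the share of the muscle list the expected reads were 32.3, 15.04 and 10.7. The 0 counts of these arms cannot be told apart from an intestine level at the share of the testis list or of miR-210-3p. A level at the share of the muscle list lay well above the floor. That share comes almost wholly from miR-1-3p, with 42252 of the 42401 intestine reads. The other muscle marker, miR-133-3p, stood at 0.918%, below the share of the testis list. Whether the 6 reads of miR-927-5p come from intestinal cells or from attached carcass tissue was not tested. Intestine 1, which held 5 of them, had the highest share of the testis list (1.52% of the carcass, against 1.28 and 1.26%). Those shares rest on 62 intestine reads in all. It also had the highest share of the list of neurons and eye (3.11%, against 2.68 and 2.56%). Within that list, however, miR-210-3p was lowest in intestine 1, at 86.0 TMM-scaled CPM against 120 and 173. Intestine 1 had the lowest share of the muscle list (19.0%, against 28.4 and 24.5%).

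The split of reads between the arms of a hairpin was not used in the choice. In the carcass, miR-927-5p took 94.4% of the 841 mir-927 reads of carcass 1 (95% exact Clopper-Pearson interval 92.6 to 95.9) and 91.9% of the 1554 of carcass 2 (90.4 to 93.2). miR-969-5p took 93.8% of 64 reads (84.8 to 98.3) and 88.5% of 208 (83.3 to 92.5). miR-985-3p took 96.5% of 171 reads (92.5 to 98.7) and 98.1% of 366 (96.1 to 99.2). The major arm was thus the 5p arm in mir-927 and mir-969 and the 3p arm in mir-985, in both libraries. Two-sided Fisher's exact tests of the arm counts between the carcass libraries gave p = 0.0254 for mir-927 (adjusted over the 3 hairpins, 0.0761), p = 0.345 for mir-969 (0.365) and p = 0.365 for mir-985 (0.365). None passed after adjustment, and the tests compare those libraries, not conditions. Pooled, the shares were 92.8% for mir-927, 89.7% for mir-969 and 97.6% for mir-985. Over the 132 hairpins with both arms listed and at least 50 carcass reads, the median share of the major arm was 96.8% (quartiles 83.8 and 99.1%), so all 3 lay within the middle of that range.

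**Figure D4:**
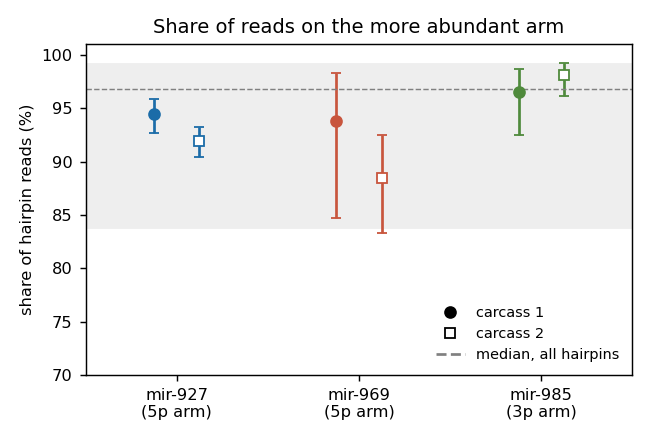
Share of a hairpin's carcass reads on its more abundant arm (y, %; the axis begins at 70%) in carcass 1 (filled circles) and carcass 2 (open squares), with 95% exact counting intervals; the dashed line is the median (96.8%) and the band the quartiles of 132 hairpins. All 3 hairpins lie within the band in both libraries.

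The ratio between the carcass libraries was taken for each member arm with at least 50 carcass reads. miR-927-5p was 1.03 times as high in carcass 2 as in carcass 1 with TMM sizes (95% exact counting interval 0.944 to 1.13), miR-985-3p 1.25 times (1.03 to 1.51), miR-927-3p 1.54 times (1.09 to 2.20) and miR-969-5p 1.76 times (1.31 to 2.39). Of these intervals, only those of miR-927-5p and miR-969-5p did not overlap. They cover counting error only, so no difference between the genes is read from them. Over the 234 arms with at least 50 carcass reads the median ratio of carcass 2 to carcass 1 was 1.10, with 90% of arms between 0.707 and 1.76. miR-969-5p, at rank 13 from the top, was therefore near the upper edge of that range.

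mir-210, the neighbour of mir-969, differed between the carcass libraries by a like amount. miR-210-3p measured 8334 and 14662 TMM-scaled CPM in carcass 1 and 2, 1.76 times as high in carcass 2, and ranked 12 next to miR-969-5p. miR-210-5p measured 178 and 270 CPM, 1.52 times as high. Such a ratio was not particular to these neighbours, since miR-971-3p stood at 1.75 and miR-263b-3p and miR-932-3p at 1.76. The minor arm miR-969-3p, with few reads, was 3.44 times as high in carcass 2 (95% exact counting interval 1.18 to 13.6). Summed over both arms, mir-969 had 64 reads to 17975 of mir-210 in carcass 1, or 0.356% (95% exact counting interval 0.274 to 0.455), and 208 to 55015 in carcass 2, or 0.378% (0.328 to 0.433). These intervals overlap, but the ratio in carcass 1 rests on 64 mir-969 reads, and whether the ratio of the neighbours differed between the libraries was not tested. The summed list of neurons and eye, of which mir-210 makes up most, was 1.53 times as high in carcass 2, against 1.01 for the testis list and 0.984 for the muscle list. The muscle list is mostly miR-1-3p (655601 of its 688022 carcass reads), with a ratio of 0.963, and miR-1-5p stood at 0.787. The other muscle hairpin was higher in carcass 2, with miR-133-3p at 1.62 and miR-133-5p at 1.39. Members of the list of neurons and eye were not uniform either. The ratio was 1.33 for miR-124-3p, 1.37 for miR-1000-5p and 1.22 for miR-263b-5p, while miR-137-3p was lower in carcass 2, at 0.859. With 2 libraries this is a description, and the part of nervous tissue and eye in the difference of mir-969 was not tested.

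**Figure D5:**
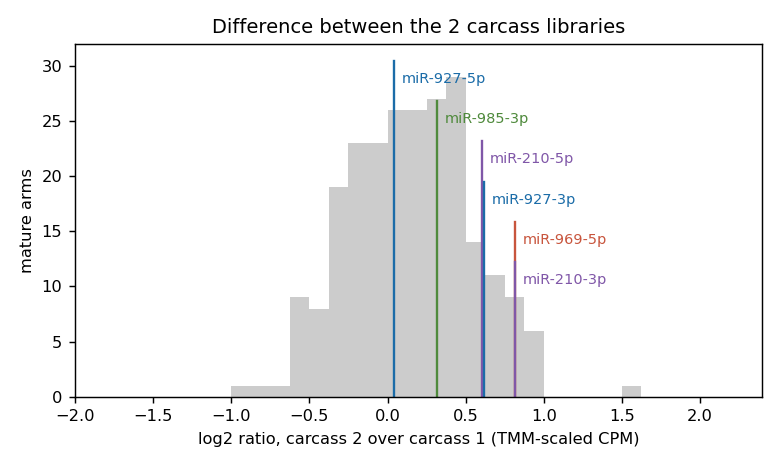
Distribution over 234 arms of the log2 ratio of TMM-scaled CPM in carcass 2 over carcass 1 (x), with the number of arms on y; coloured lines mark member arms and, in purple, both arms of mir-210. miR-969-5p and miR-210-3p lie at 0.81, and miR-927-5p lies at 0.04.

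Likeness to other arms was measured as the Euclidean distance of log2(TMM-scaled CPM + 1) over the 5 libraries, as a description. Nearest to miR-985-3p were miR-2494-3p (distance 0.23; 91.4 and 101.5 CPM in the carcass), miR-975-5p (0.37) and miR-977-3p (0.50), all without intestine reads. Nearest to miR-969-5p were miR-927-3p (0.63), miR-2498-5p (0.63) and miR-983-2-3p (0.65), also without intestine reads. Arms without intestine reads are equal in the 3 intestine libraries, so the choice itself shortens the distances between them. For miR-927-5p, with 5, 0 and 1 intestine reads, a few reads add to each distance, so its longer distances are not comparable. The arms nearest to miR-927-5p were miR-978-3p (2.04; 215 and 254 CPM in the carcass, 5 intestine reads), miR-315-5p (2.42; 158 and 309 CPM, 6 reads) and miR-960-5p (2.45; 152 and 144 CPM, 6 reads). The arms of mir-975, mir-977, mir-978, mir-983-2 and mir-960 belong to the testis clusters. miR-2494-3p, at the shortest distance of all those named, does not, and neither do miR-2498-5p, miR-315-5p and miR-927-3p. Of the 54 hairpins with an arm read in both carcass libraries and not in the intestine, 42 lie outside the testis clusters. Libraries of one tissue are shared by all arms compared, so no tissue of origin is read from this likeness.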

How the data were processed

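Small RNA libraries were prepared from total RNA by size selection and ligation of linkers to both ends, and sequenced on a NextSeq500, per the labels' protocols. Per the submitters' processing notes, the authors used cutadapt 1.9.1, Bowtie2 2.3.2, featureCounts and Subread 2.0.0. Build, annotation, strand and multi-mapping settings: not given in the sources used here. What the authors deposited is whole-number read counts per mature arm, not normalised, with 1 column per library. Their totals are microRNA reads, not the full depth. The labels mention no molecular identifiers, so intervals and floors cover counting error only.

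Groups came from the sample titles. The labels speak of triplicates, and 2 carcass libraries were analysed here, as in the series design. Separate animals are not stated for the replicates, so the spread between libraries may be technical. The members and lists were chosen with earlier results of these data known.

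Of 479 rows, 477 matched the BDGP6.54 annotation by name, and the 2 rows of let-7 did not. An arm was assigned by its place in the hairpin. mir-263a is listed under its gene name bft. Levels are CPM on TMM sizes from edgeR 4.0.16 (R 4.3.3), and folds use pooled reads on library totals. The edgeR quasi-likelihood test, with filterByExpr (minimum count 10, minimum total 15), gave the background share of calls and was tested on simulated data. Intervals and Fisher's exact tests used scipy 1.17.1. The text names both arms of each hairpin, the 3 arms most like each major arm, its neighbours in carcass level, and the arm without intestine reads that had the most carcass reads. Other arms are named as markers, neighbours, higher-ranked hairpins or arms with a like ratio between the carcass libraries. Arms sharing a seed could not be listed, since no sequences were used here. Alternatives were upper-quartile and RLE factors, unscaled library totals, DESeq2 1.42.0, no filter, thinning, a replicate block and leaving out each library.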

Additional observations from a re-analysis of the deposited data

How the results depend on the processing

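Carcass levels were higher with other scalings, most with library totals: miR-927-5p from 382 to 395 CPM with upper-quartile factors, 445 with RLE factors and 475 with library totals, with or without the most abundant arm, and miR-985-3p from 87.8 to 102 with RLE factors and 109 with totals, again with or without that arm. With TMM sizes the folds were 68.9 for miR-927-5p and at least 10.7 for miR-927-3p and 32.5 for miR-985-3p. A floor of 3 reads in each intestine library lowered the bounds to 5.10 for miR-927-3p, 7.20 for miR-969-5p and 15.5 for miR-985-3p. Leaving out single libraries gave folds of 69.2 to 330 for miR-927-5p, and bounds of 8.57 to 17.2 for miR-927-3p, 12.1 to 25.1 for miR-969-5p and 26.0 to 49.1 for miR-985-3p. It gave shares on the major arm of 91.9 to 94.4% for mir-927, 88.5 to 93.8% for mir-969 and 96.5 to 98.1% for mir-985. Intestine 1 moved the bounds most, since it is the deepest intestine library. The number of arms with reads in both carcass libraries and none in the intestine was 62, against 36 with at least 5 reads in each carcass library. It was 35 after the single random thinning and 73 to 90 without single intestine libraries. Over the table, 77 arms were higher in the intestine with TMM and 50 with library totals. Replicate numbers showed no sign of pairing between the tissues (correlations of deviations from -0.026 to 0.026 across 222 arms). With 2 carcass libraries their deviations mirror each other, so this check cannot decide whether the tissues came from the same animals. With a replicate block 107 arms were lower and 73 higher. The 3 arms most like each major arm were the same 3 with a pseudocount of 0.5 and with library totals. Depth limits the minor arms most: miR-985-5p and miR-969-3p rest on 13 and 28 carcass reads.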
